A study of Mus musculus with 6 samples.

Results

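Inmt, Nnmt, Hnmt and Tpmt encode 4 methyltransferases that act on small molecules, and their probe sets were taken from a time course of the mouse uterus after progesterone. The members were every probe set that the platform annotation assigns to just 1 of these symbols, chosen with the values on all 6 arrays and the differences from 0 h in view, so those values are described here without a test. Inmt, Nnmt and Tpmt each had 1 such probe set, so 3 of the 4 genes were measured, among 8251 genes with a probe set of their own in the whole table. No probe set used here carries the symbol Hnmt alone, and Hnmt was not analysed here.

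The mice were wildtype 129/SvImJ females, 10 to 16 weeks old, that had lost their ovaries 14 days before. The progesterone groups had received 0.2 mg of the hormone in 0.1 mL sesame oil under the skin, and their uteri were taken 6, 12, 15, 18 or 24 h later, while the 0 h group received no injection. Each group was 1 pool of 8 uterine horns from 4 mice on 1 Affymetrix array, so there were no replicates, each difference from 0 h shares the same single 0 h array, and the number of arrays limits the precision. No oil-injected group was analysed here, so progesterone, vehicle and handling cannot be told apart. In whole horns, fewer cells of a type and less RNA per cell cannot be told apart either.

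Methyltransferases of this kind move a methyl group from S-adenosylmethionine onto an amine, a ring nitrogen or a sulfur atom of their substrate and leave S-adenosylhomocysteine behind. Inmt, indolethylamine N-methyltransferase, methylates tryptamine and related amines, and the mouse enzyme is also known as a thioether S-methyltransferase. Nnmt methylates nicotinamide, a precursor of NAD, and belongs to the same protein family as Inmt and the adrenaline-forming enzyme Pnmt. Hnmt inactivates histamine, and Tpmt methylates thiopurine drugs such as mercaptopurine.

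The promoter windows of Inmt and Tpmt are shown because the Inmt level moved most among the members and the Tpmt level stayed low. Both come from RefSeq on GRCm38.p6, on the minus strand, and run 5′ to 3′ from 250 bases before to 50 bases after the annotated start. The Inmt window lies at chr6:55174941-55175240 and the Tpmt window at chr13:47043168-47043467. Capitals mark a TATA-type motif in Inmt. In Tpmt they mark the GC box core, which stands there as the reverse complement of CCGCCC.
Inmt: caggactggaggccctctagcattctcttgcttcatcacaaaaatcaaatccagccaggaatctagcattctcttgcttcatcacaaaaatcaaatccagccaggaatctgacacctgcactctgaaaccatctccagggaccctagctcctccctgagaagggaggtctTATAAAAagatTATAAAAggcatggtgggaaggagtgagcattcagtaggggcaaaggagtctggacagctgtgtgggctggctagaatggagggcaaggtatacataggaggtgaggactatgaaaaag
Tpmt: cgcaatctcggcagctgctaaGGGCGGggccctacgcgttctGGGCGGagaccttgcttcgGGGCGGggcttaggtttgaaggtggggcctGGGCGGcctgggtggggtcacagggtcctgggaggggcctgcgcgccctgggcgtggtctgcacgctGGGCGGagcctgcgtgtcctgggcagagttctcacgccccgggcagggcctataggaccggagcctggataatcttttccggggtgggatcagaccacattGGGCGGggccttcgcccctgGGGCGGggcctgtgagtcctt

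With both strands searched, TATAAAA matched 2 times in the Inmt window, at bases 171 to 177 and 182 to 188, and 0 times in the Tpmt and Hnmt windows. It occurs in 5.48% of 32841 promoter windows of this length. CCGCCC, read on both strands, matched 7 times in the Tpmt window and 0 times in those of Inmt and Hnmt, and 35.7% of all windows hold it. The Inmt window is 47.7% G or C and the Tpmt window 69.7%, against a median of 52.7% over all windows. TGTTCT, the half-site that the progesterone receptor shares with other steroid receptors, had no match on either strand of the Inmt, Tpmt and Hnmt windows, while 19.0% of all windows hold it. The Inmt window also carries a stretch of 46 bases, at bases 16 to 61, that follows again without a gap at bases 62 to 107. An exact repeat at least this long without overlap is found in 74 of the 32841 windows, or 0.225%. The repeated unit is shown on its own line.
Inmt repeat: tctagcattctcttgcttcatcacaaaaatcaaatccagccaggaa

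Inmt had the highest level on the uninjected array and the lowest 24 h after progesterone. Its deposited log2 expression, in the order of the arrays from 0 through 6, 12, 15 and 18 to 24 h, was 10.45, 10.19, 8.71, 7.90, 7.84 and 7.13. On the linear scale these values are 1403, 1169.9, 419.6, 238, 229.7 and 140.4. Each array lay below the one before it, and the 24 h level was 9.99-fold lower than the 0 h level. In percent of the uninjected array, Inmt stood at 83.4% after 6 h, at 29.9% after 12 h, at 17.0% after 15 h, at 16.4% after 18 h and at 10.0% after 24 h. Of 7672 analysed probe sets without a missing value, 56 (0.73%) were lower on each later array than on the one before.

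**Figure D1:**
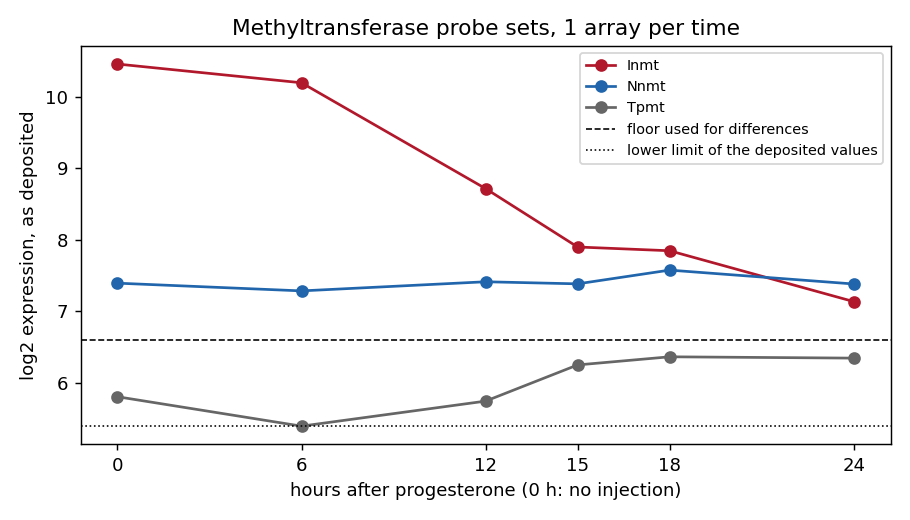
Deposited log2 expression (vertical axis) of the Inmt, Nnmt and Tpmt probe sets against hours after progesterone, with 0 h uninjected and 1 array per point. Inmt runs from 10.45 down to 7.13, Nnmt stays between 7.28 and 7.57, and every Tpmt value lies below the dashed floor of 6.60.

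The decline of Inmt was uneven over time. From 0 to 6 h it changed by -0.26 on the log2 scale, a step that 23.0% of analysed probe sets matched or exceeded downwards. From 6 to 12 h it changed by -1.48, or 2.79-fold lower at 12 h, and 5 of 7724 probe sets had a step as low. The step from 12 to 15 h was -0.82, equal to -0.27 per hour against -0.25 per hour in the 6 h before. Between 15 and 18 h Inmt changed by -0.05, where the SD over all probe sets was 0.20 and 56.4% had a step as low. That SD is a spread between genes and not the error of an Inmt value. With 1 array per time, whether the 15 and 18 h levels differ cannot be told. From 18 to 24 h it changed by -0.71, where the SD over all probe sets was 0.19 and 9 of 7693 had a step as low. By share, 44.5% of the whole log2 fall came in the interval from 6 to 12 h, 24.6% in that from 12 to 15 h and 21.4% in the last one.

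Differences from 0 h were taken after values below the 40th percentile of the table (6.60 on the log2 scale) were set to that floor, which Inmt never reached. From the 6 h to the 24 h array they were -0.26, -1.74, -2.56, -2.61 and -3.32, so Inmt was at least 2-fold lower from 12 h on. In the same order, 1.1%, 1.75%, 1.58%, 1.8% and 1.39% of all analysed probe sets were at least 2-fold lower than on the 0 h array. Counted from the lowest difference, Inmt was number 1778 of 7719 at 6 h and then number 20, 5 and 4 on the following arrays. On the 24 h array it was the lowest of 7700. Its range over the 6 arrays, 3.32, was the 4th largest of 7672, where the median range was 0.43.

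The late fall was also present without the 0 h array. Set against the 6 h array instead, Inmt differed by -1.48, -2.30, -2.35 and -3.06 on the 12, 15, 18 and 24 h arrays. The last of these, 8.33-fold lower at 24 h than at 6 h, was the lowest of 7701 probe sets, of which 0.909% were at least 2-fold lower at 24 h. The SD of log2 differences from the 0 h array over all analysed probe sets was 0.39 to 0.44 at the 5 times. Between neighbouring progesterone arrays, which lie closer in time, it was 0.17 to 0.27. For steps of 6 h it was 0.39 from 0 to 6 h, 0.27 from 6 to 12 h and 0.19 from 18 to 24 h. Progesterone arrays further apart were not compared in this way.

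**Figure D2:**
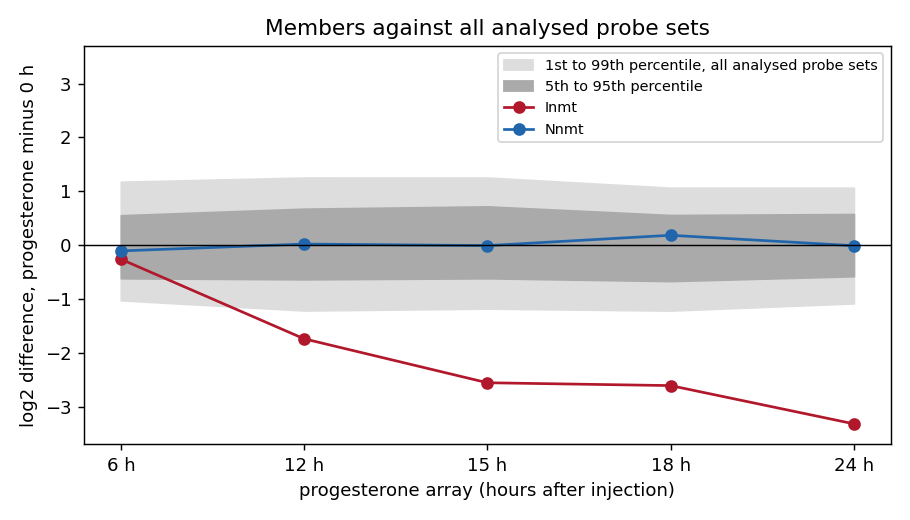
Log2 difference from 0 h (vertical axis) of Inmt and Nnmt on each progesterone array, over grey bands that hold the 5th to 95th and the 1st to 99th percentiles of all analysed probe sets. Inmt is inside the inner band at 6 h (-0.26) and below both bands from 12 h, while Nnmt stays between -0.11 and 0.18.

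Nnmt, the relative of Inmt that consumes nicotinamide, had no 2-fold difference at any time. Its log2 expression from the 0 h to the 24 h array was 7.39, 7.28, 7.41, 7.38, 7.57 and 7.38. The 0 h value lay within the range of the progesterone arrays, 7.28 to 7.57, whose mean was 7.41 ± 0.11 (SD, n = 5). From 6 to 24 h its differences were -0.11, 0.02, -0.01, 0.18 and -0.01. The lowest array was 6 h and the highest 18 h, 0.29 apart, and 77.0% of analysed probe sets had a range at least as wide.

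Tpmt was below the floor on every array, so no difference from 0 h was taken. Its deposited log2 values from 0 to 24 h were 5.80, 5.39, 5.74, 6.25, 6.36 and 6.34. The 6 h value is the lower limit that all columns of the table share, at which 21.1% to 22.5% of the values of each array lie. The arrays from 15 to 24 h read higher than those from 0 to 12 h, in a range where neighbouring values are close to that limit.

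Genes with the time course most like that of Inmt were sought among 468 named probe sets with a range of at least 1 on the log2 scale, by Pearson's r over the 6 arrays. The arrays share 1 time order and the 0 h sample, so r is a description with no test. Igf1r, the receptor for insulin-like growth factor, came first with r = 0.99, at log2 levels of 9.99, 9.76, 9.29, 9.12, 8.99 and 8.75 from 0 to 24 h. It was followed by the kallikrein Klk1b1, by Bex1, by the retinaldehyde dehydrogenase Aldh1a1 and by the mitochondrial acetyl-CoA synthetase Acss1, each with r = 0.97. All 5 genes were lower on the 24 h than on the 0 h array, by a smaller amount than Inmt. Aldh1a1 had the lowest difference of them, -1.75, with log2 levels of 7.71 on the 24 h array and 9.46 on the 0 h array, and Klk1b1 followed at -1.48.

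The most opposite courses belonged to Pfn2, an actin-binding profilin (r = -0.99), the troponin Tnni2, the collagen Col3a1 and Sh3bgr (r = -0.98 each), and Sardh (r = -0.97). Sardh, a mitochondrial dehydrogenase that removes the methyl group of sarcosine, had log2 levels of 6.67, 6.43, 7.03, 7.37, 7.57 and 7.61 from 0 to 24 h. Its 6 h value lies below the floor. At 24 h these 5 genes were higher than at 0 h by 0.94 to 2.14, and Tnni2, below the floor at 0 and 6 h, has lower limits for its differences from 12 h on. The 3 probe sets of Col3a1 disagree in size at 24 h, with 2.14 on the one shown, 1.08 on the one with the highest level and 1.35, a lower limit set by the floor, on the third.

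**Figure D3:**
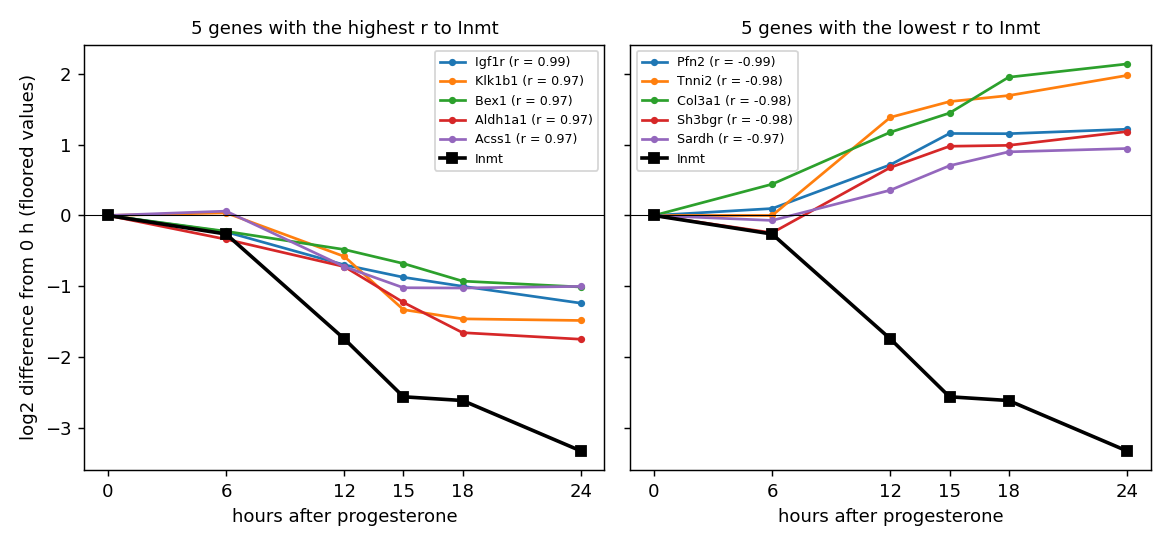
Log2 difference from 0 h (vertical axis, floored values) against hours after progesterone for the 5 genes with the highest r to Inmt (left) and the 5 with the lowest r (right), with Inmt in black. At 24 h the genes on the left reach down to -1.75 and those on the right lie between 0.94 and 2.14, while Inmt ends at -3.32.

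The genes around the members were taken from 6 lists of 94 distinct symbols, which include older and newer names of the same gene, such as Wars and Wars1. Of the 94, 48 had a probe set and 34 were above the floor on at least 2 arrays. Both limma fits used here ran over all analysed probe sets, with Benjamini-Hochberg adjustment. The first set the 5 progesterone arrays against the 0 h array and called 2.69% of 7724 probe sets, and the second followed the hours as a number and called 0.31% of 7731. In the first fit 1 of the 34 genes was called, a share close to that over all probe sets. Of the 34, 5 had an unadjusted p under 0.05, as did 19.0% of all analysed probe sets. In the second 0 were called, 4 had an unadjusted p under 0.05, as did 16.2% of all, and the lowest adjusted p was 0.12. Both fits take their spread from arrays of different times, and the first assumes that the single 0 h pool varies like them. Its SE and p therefore do not cover the spread between uninjected pools.

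The gene called was Hdc, histidine decarboxylase, which makes the histamine that Hnmt inactivates. Its log2 level from 0 to 24 h was 9.77, 11.54, 11.54, 11.44, 11.03 and 11.26, so all 5 progesterone arrays lay above the 0 h array. The fitted difference of Hdc was 1.59 ± 0.20 (SE; limma, adjusted p = 0.0096), with adjusted p between 0.0089 and 0.049 over 11 other settings. Each of these uses the same 0 h array, and the lists were chosen with earlier results of these data known. Of the histamine receptors, Hrh1 had differences of -0.24 to -0.12 and Hrh2 of 0.22 to 0.47 over the 5 times, and neither was called. Aoc1, the other main enzyme of histamine breakdown, was below the floor on all arrays.

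No other listed small-molecule methyltransferase was 2-fold from 0 h on the probe set used. Of 17 symbols listed, 9 had a probe set and 6 were analysed, with 0 called in either fit and median differences from 0 h of -0.04, 0.13, 0.08, 0.20 and 0.08 at 6, 12, 15, 18 and 24 h. Over all analysed probe sets the medians were -0.05, 0.03, 0.03, -0.04 and 0.00. Pnmt, of the same family as Inmt, lay between -0.27 and 0.08. Coq3, which methylates precursors of ubiquinone, had -0.01 at 6 h and 0.36 to 0.48 later, and Pemt, which makes phosphatidylcholine by methylation, had 0.01 at 6 h and 0.21 to 0.37 later.

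The methyl donor cycle showed no called gene among its 4 analysed members. Ahcy, which splits S-adenosylhomocysteine, differed from 0 h by -0.64 at 6 h and by -0.09 to 0.18 later on the probe set used. Another analysed probe set of Ahcy had -0.48 at 6 h and 0.16 to 0.36 later. Adk, which removes the adenosine formed, differed by 0.15, 0.56, 0.65, 0.27 and 0.33 from 6 to 24 h. Mat2b, a regulatory subunit of the enzyme that makes S-adenosylmethionine, lay between -0.54 and -0.13. The list median was -0.20 at 6 h and 0.12 at 24 h.

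Around the substrates of Inmt and Nnmt no gene was called either, with 4 tryptophan and indoleamine genes and 8 nicotinamide and NAD genes analysed. Maoa, a monoamine oxidase that degrades tryptamine and serotonin, had a difference of -0.09 at 6 h and 0.58, 0.76, 0.70 and 0.69 from 12 to 24 h. Ddc, which forms tryptamine from tryptophan, lay between -0.16 and 0.09. Nampt, which recycles nicotinamide to NAD, had 0.31 at 6 h and -0.17 at 24 h, and Aox1, an aldehyde oxidase that oxidizes methylated nicotinamide, lay between -0.82 and -0.32. Without the 6 h array, the first fit called 7.64% of all probe sets, among them Maoa (0.68; limma, adjusted p = 0.024) and Xdh. With all arrays, and so with its 6 h difference of -0.09, the first fit gave Maoa 0.53, and no other setting called Maoa. No p is given for Xdh, since 3 of its 4 values left after progesterone are the floor itself. Without the 0 h array, the fit over hours called 1.9% of all, among them Nnt, a mitochondrial transhydrogenase, with 1.16 per 24 h (limma, adjusted p = 0.042). Nnt differed from 0 h by -0.55, -0.39, -0.25, 0.12 and 0.26 from 6 to 24 h. With all arrays its trend was 0.44 per 24 h (limma, adjusted p = 0.51), and no other setting called it.

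The thiopurine and purine salvage list had 10 analysed genes and 0 called in either fit with all arrays. Hprt, the enzyme that activates thiopurines, differed by 0.10 to 0.38. Xdh, xanthine oxidoreductase, had 0.36 at 6 h and -0.67 to -0.65 from 12 h, where the values from 15 h are limits set by the floor. Apart from Hdc, the 34 genes lay between -0.82 and 0.76 at all times on the probe set used for each. Another analysed probe set of Gamt lay outside this range, with 0.84 at 12 h and 0.998 at 15 h.

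**Figure D4:**
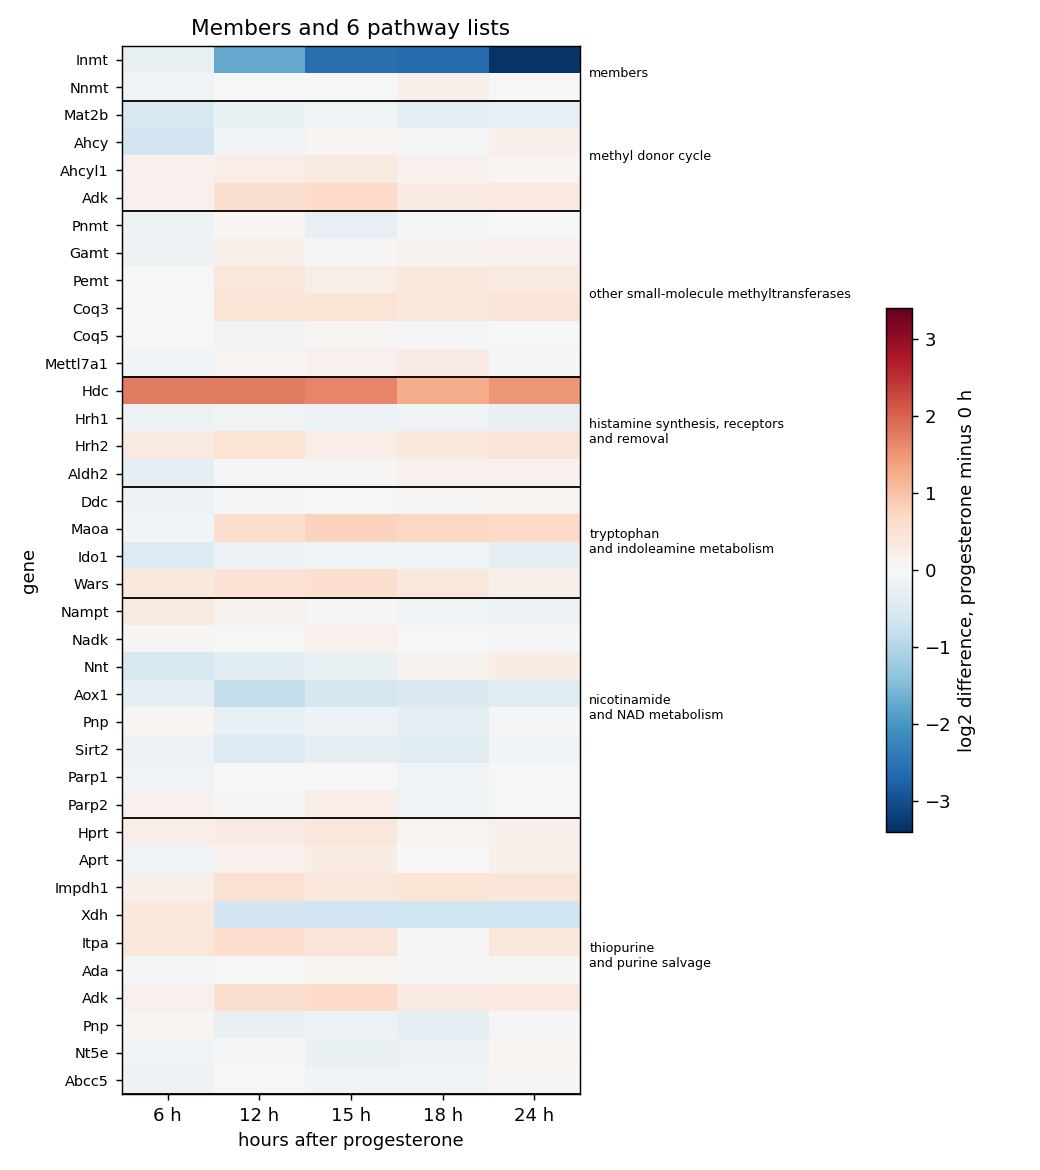
Log2 difference from 0 h on the 5 progesterone arrays (columns, 6 to 24 h) for Inmt, Nnmt and the analysed genes of the 6 lists (rows); blue is lower and red higher than 0 h, and Adk and Pnp stand in 2 lists. Inmt reaches -3.32 and Hdc stays between 1.26 and 1.77, while the other genes lie between -0.82 and 0.76 on the probe set used for each.

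The uterine tissue showed its defining markers, with all 9 listed epithelial, 9 of 10 stromal and 7 of 8 smooth muscle genes analysed. Most markers of uterine epithelium read lower after progesterone. Their median difference was -0.54, -0.62, -0.76, -1.03 and -1.03 at 6, 12, 15, 18 and 24 h, and their summed linear level was 4556 to 5781 on the progesterone arrays against 8410 at 0 h. Of the 9, the first fit called Krt18, Epcam and Ltf lower, as it did 1.8% of all probe sets, and the fit over hours called Krt7 lower, as it did 0.116%. Under 11 other settings of the first fit, Epcam was called in all 11, Krt18 in 6 and Ltf in 5, and Krt7 was called in 3 of 12 of the fit over hours. With the floor at the 60th percentile (7.70), all 5 progesterone values of Epcam are the floor itself, so that call rests on no spread between them. The calls of Krt18 and Ltf ended without the 12, 15, 18 or 24 h array, and that of Krt7 without the 0, 6, 12, 15 or 18 h array. Lcn2, the lipocalin of the list, was 1.14 higher at 6 h, 0.24 higher at 12 h, -0.76 at 15 h and -1.03, a limit set by the floor, at 18 and 24 h. The list median at 18 h is this Lcn2 limit and not a measured difference.

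Other markers differed as well. The stromal list had a median difference of 0.25 at 6 h and 0.61 at 24 h, and the fit over hours called its collagens Col1a1 and Col3a1 higher, as it did 0.194% of all probe sets. These calls held in 6 and 4 of 12 other settings and ended without the 6, 12, 15 or 18 h array, that of Col3a1 also without the 0 h array. Of the 9 analysed stromal genes, 4 were below 0 at 6 h and 1 at 24 h. Dcn lay between -0.40 and -0.02 over the 5 times, and Lum was -1.22 at 6 h, -0.71 at 12 h and 0.22 at 24 h. Vim was below the floor. The smooth muscle list, with 0 called, had a median of -0.17 at 6 h and 0.36 at 24 h. In the endothelial list the first fit called Cldn5, a tight junction claudin, lower (-1.29 ± 0.16, SE; limma, adjusted p = 0.010), which held in 10 of 11 other settings but not without the 12 h array, and the list median lay between -0.24 and 0.07. Pecam1 was below the floor, and the other 6 endothelial genes were analysed, 5 of them below 0 at 6 h and 2 at 24 h. Of the mast cell, macrophage and mesothelial lists, 3 of 8, 7 of 8 and 3 of 6 genes were analysed. None of these was called in either fit. Cpa3, Mcpt4, Fcer1a, Ms4a2, Adgre1 and Msln were below the floor. The mesothelial genes include Krt19, also on the epithelial list, and Upk3b, which differed by -1.10 at 6 h and -0.33 at 24 h. Of the adipocyte list, 4 of 8 genes were analysed, 3 of them with a value at 0 h, and Fabp4 and Cidec were below the floor. The summed level of Adipoq, Retn and Lep was 908 to 1296 on the progesterone arrays against 1867 at 0 h. Adipoq, the fat cell hormone adiponectin, was lowest at 15 h, with a log2 level of 6.89 against 9.41 at 0 h, and 7.70 at 18 h. Retn, the hormone resistin, differed by -0.99 to -0.60, and Lep, leptin, by -0.21 to 0.02. The part of these cell types in the Inmt level was not tested.

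**Figure D5:**
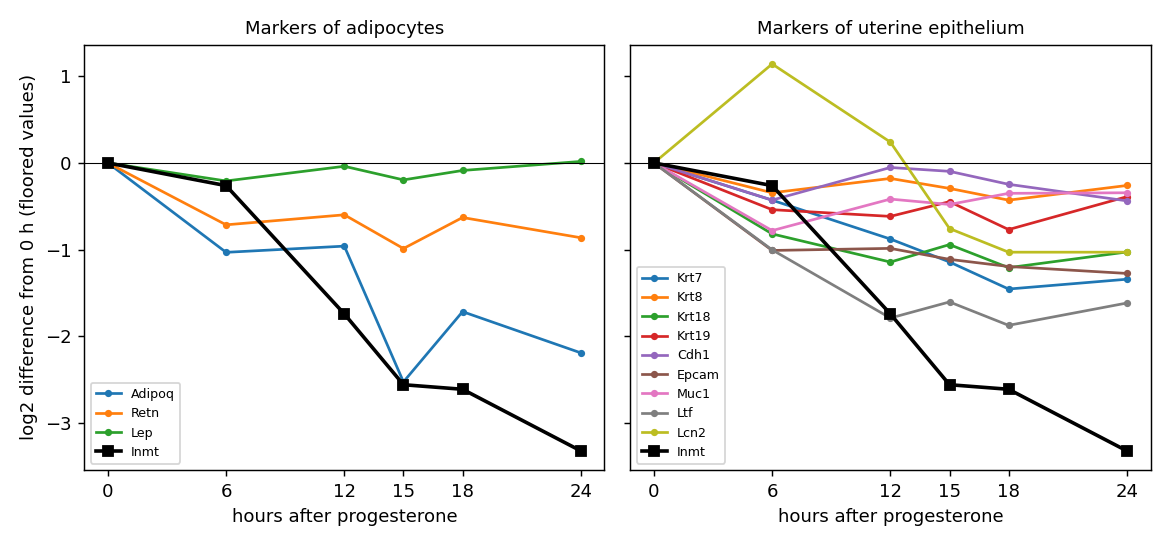
Log2 difference from 0 h (vertical axis, floored values) against hours after progesterone for analysed adipocyte markers (left) and epithelial markers (right), with Inmt in black. At 24 h Adipoq stands at -2.19, Ltf at -1.62 and Inmt at -3.32.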

How the data were processed

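Per the labels, total RNA of pooled uterine horns was labelled and hybridized by the array maker's recommendations. The deposited table holds log2 values, 1 for each probe set and array. Base 2 was inferred from the numbers themselves, since 99.8% of values under 2000 on the linear scale came out with 4 decimals in base 2 and 6.42% in the natural base. The sources used here do not give the authors' background correction or normalization. Of 12487 probe sets, 65 controls were left out, and 121 missing values stayed missing. Values under the 40th percentile (6.60) were set to it, and 7731 probe sets above it on at least 2 of 6 arrays were analysed. Genes came from the platform annotation. With several probe sets, a list gene is given by the one of highest mean.

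limma 3.58.1 (lmFit, eBayes with trend) in R 4.3.3 gave both fits, after a run on simulated data, and a call is an adjusted p under 0.05. Where values were missing, a probe set was fitted on the remaining arrays. Python 3.11.15 did the rest. Named genes were the members, pathway-list genes that were called or at least 2-fold from 0 h, the 5 most like and 5 most opposite to Inmt, marker genes where a list is described, and, for the pathway lists, further genes picked after their values were seen. Members and lists were chosen with earlier results of these data known. The alternatives were other floors, no floor, quantile normalization, median centring, no filter and leaving out each array.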

Additional observations from a re-analysis of the deposited data

How the results depend on the processing

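The direction of Inmt held at all 5 times under the 5 other floors and scalings, with differences of -0.26 to -0.19 at 6 h and -3.32 to -2.75 at 24 h. The -2.75 came from a floor set to the 60th percentile (7.70), which lies above the 24 h value. Tpmt, at the floor throughout, gave -0.41, 0.44, 0.56 and 0.54 at 6, 15, 18 and 24 h with values as deposited. The 20th percentile as floor equals the shared lower limit, so it gave the same values. Nnmt stayed between -0.11 and 0.24 in all 5. Using the 60th percentile as floor, 92 probe sets were at least 2-fold higher at 12 h (141 otherwise), and 48, 80, 90 and 62 at least 2-fold lower at 6, 15, 18 and 24 h (85, 122, 139 and 107 otherwise).

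In limma, 69 probe sets rose and 139 fell against 0 h. Under a floor at the 60th percentile these were 31 and 295, and with no filter 22 rose. Leaving out 1 array gave 13 to 256 that rose and 30 to 334 that fell, highest without 6 h and lowest without 12 h, with 30 fallen also without 15 h. Over hours, 15 rose and 9 fell. Values as deposited and the floor at the 20th percentile both gave 29 and 24, and quantile normalization 2 and 2. The floor at the 60th percentile and no filter gave 0 and 0 in limma, with an unadjusted p under 0.05 for 887 and 1219 probe sets. Leaving out 1 array gave 0 to 79 that rose and 0 to 68 that fell, highest without 0 h, with none without 12, 15 or 18 h (1118, 1045 and 929 at an unadjusted p under 0.05). The causes were not tested. Hdc was called in the first fit under all 11 other settings. Ido1 was called under the 60th-percentile floor, by -0.07 between floored values. No paired analysis was possible because each group is 1 array with no replicate number. With 1 probe set per member and 1 array per time, no member value has a repeat, and levels near the lower limit cannot be ordered.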

Other observations

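Gamt, which forms creatine by methylation, had another probe set than the one used in the list. Its log2 values from 0 to 15 h were 7.23, 7.42, 8.07 and 8.22, with no value on the last 2 arrays. Its differences from 0 h were 0.84 on the 12 h array and 0.998 on the 15 h array, against 0.16 and 0.03 on the probe set used. Lpl, the lipoprotein lipase of fat and muscle, had no value at 0 h on its main probe set and log2 values of 8.37, 8.21, 7.35, 7.75 and 7.63 from 6 to 24 h. Like Adipoq, this probe set was lowest at 15 h. Another Lpl probe set read 6.85 at 0 h and lay below the floor from 6 h on, at the lower limit at both 15 and 24 h.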
